A study of Homo sapiens with 8 samples.

Results

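The 10 genes described here encode the cytoplasmic actins ACTB and ACTG1, the alpha tubulins TUBA1A, TUBA1B and TUBA1C, and the beta tubulins TUBB, TUBB2A, TUBB3, TUBB4B and TUBB6. They are 10 of 58735 genes in a table of gene expression in HCT116, a human colorectal carcinoma cell line of epithelial origin. They were picked by name as abundant cytoskeletal genes, and the value that drew attention to the group was the lower level of ACTG1 with MAPKAPK2 shRNA 1. The values in that contrast are therefore given as a description with no test.

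RNA was sequenced from 8 libraries in 4 groups of 2. One group carried a control shRNA and was kept for 24 h in medium with 0 mM glucose. Cells with MAPKAPK2 shRNA 1 and cells with MAPKAPK2 shRNA 2, separate short hairpin RNAs against the p38-activated kinase MAPKAPK2 (MK2), were labelled 20 mM glucose, with no time given. The control shRNA at 20 mM glucose for 24 h was the reference of all 3 groups. Every group carried an shRNA. The labels do not name separate cultures for the 2 libraries of a group, so the spread behind each p-value is that of these libraries and may be technical.

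Actins polymerize into filaments that shape the cell cortex and carry contraction, and dimers of alpha and beta tubulin polymerize into microtubules. Cells keep the 2 systems in supply by feedback on the mRNA. Free actin monomers hold back MRTF cofactors of the transcription factor SRF, whose targets include the cytoplasmic actins. An excess of free tubulin dimers triggers decay of tubulin mRNA while it is being translated, when the factor TTC5 recognizes the first residues of the new chain. The isotypes are close in sequence and differ in where they are made, with TUBB3 best known from neurons.

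The start of each coding sequence shows both the shared and the separate features of the family. The first 30 coding bases of 1 coding transcript per gene (GENCODE 29, GRCh38) are given 5′ to 3′, with the start codon and the next 3 codons in capitals. In tubulins these codons encode the stretch that TTC5 reads, and in actins they lie where the ACTB and ACTG1 proteins differ most.
ACTG1: ATGGAAGAAGAGatcgccgcgctggtcatt
ACTB: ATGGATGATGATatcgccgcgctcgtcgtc
TUBA1A: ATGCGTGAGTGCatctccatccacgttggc
TUBA1B: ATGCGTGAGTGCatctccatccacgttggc
TUBA1C: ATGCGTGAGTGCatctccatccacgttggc
TUBB: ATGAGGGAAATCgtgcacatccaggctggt
TUBB4B: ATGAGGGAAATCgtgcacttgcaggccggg
TUBB6: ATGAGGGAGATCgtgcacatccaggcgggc
TUBB2A: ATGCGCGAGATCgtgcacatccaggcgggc
TUBB3: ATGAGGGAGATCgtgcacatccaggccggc

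The 3 alpha tubulins were identical over these 30 bases, while no 2 of the beta tubulins were. Over the whole coding sequence TUBA1A and TUBA1B were 97.19% identical, TUBA1B and TUBA1C 96.82%, and TUBA1A and TUBA1C 95.86%, with identical runs of up to 326 bases. Reads from such runs can fall to any of the 3 genes, so the split between them is uncertain. ACTB and ACTG1 were 91.29% identical with a longest identical run of 59 bases. TUBB2A shared 98.2% of its coding bases, with a run of 725 bases, with TUBB2B, which was listed at 0.441 to 1.16 FPKM.

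A second sequence bears on the actins. SRF binds the CArG box, here searched as CC, then 6 bases that are A or T, then GG, on both strands of the 250 bases upstream of the start site. ACTG1 was the only one of the 9 members with a RefSeq promoter entry (GRCh38.p14) to hold a match, and 1.159% of 35116 human promoters hold one. ACTB, the other actin, had no entry and was not searched. The printed stretch spans chr17:81512874-81512903 on the minus strand, with the box in capitals from -94 to -85 relative to the start site. Of the 250 bases, 92 lie in annotated exons of ACTG1 itself. The stretch free of them ends at -93, so most of the box lies in an annotated exon.
ACTG1 CArG: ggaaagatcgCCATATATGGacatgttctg
The 176 bases upstream of the TUBB4B exons, chr9:137241037-137241212 on the plus strand, are shown because TUBB4B differed between the hairpins in every alternative run. TUBB6 did so too but is not printed. Its window at start site 12307669 held no CCAAT, and that at 12308241 held CCAAT. The capitals mark CCAAT, searched on both strands, a motif found in 32.008% of the 35116 promoters.
TUBB4B upstream: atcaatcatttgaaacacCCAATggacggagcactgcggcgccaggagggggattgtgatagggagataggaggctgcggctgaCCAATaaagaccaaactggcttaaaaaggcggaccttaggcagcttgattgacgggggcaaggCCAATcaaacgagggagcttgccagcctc
CCAAT also occurred in at least 1 window of ACTG1, TUBA1A, TUBA1C, TUBB, TUBB3 and TUBB6. A match describes the letters of the window and not a bound site.

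Each library held 14252316 to 19975449 reads in genes, and all 10 members passed the filter on low values (at least 1 FPKM, a read number scaled to exon length and library size, in 2 or more libraries). MAPKAPK2 itself had 2.77 and 2.54 FPKM with shRNA 1, 0.982 and 0.800 FPKM with shRNA 2, 17.9 and 18.9 FPKM in the control without glucose, and 16.4 and 16.2 FPKM in the control with glucose. The 2 libraries of shRNA 2 differed most from each other, with a chi-square of their reads of 30.58 per gene, against 6.08 to 11.55 in the other groups. All 7 epithelial markers were at 1 FPKM or more in every library. Their summed FPKM was 1810 to 1841 in the control without glucose, 1436 to 1633 with shRNA 1, 1253 to 1617 with shRNA 2 and 1568 to 1603 in the control with glucose. Markers of blood summed to at most 0.328 FPKM, of endothelium to at most 0.203 FPKM, and of fibroblast or muscle to at most 8.98 FPKM.

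By mean FPKM over the 8 libraries, a level per length of exon, the order was ACTG1 (1928), ACTB (894), TUBB (332), TUBB4B (278), TUBA1B (130.4), TUBA1C (75.8), TUBB6 (32.2), TUBB2A (22.1), TUBA1A (19.9) and TUBB3 (2.58). TUBB was above TUBB4B in 7 of 8 libraries and TUBB2A above TUBA1A in 4 of 8, so neither pair is ordered beyond its spread. The other neighbours kept their order in 8 of 8 libraries. Scaled to the length of 1 coding transcript in place of all exons, TUBA1A (35.6) stood above TUBB2A (24.0) and no other place changed. The 10 genes together took 0.907% to 1.37% of all reads.

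**Figure D1:**
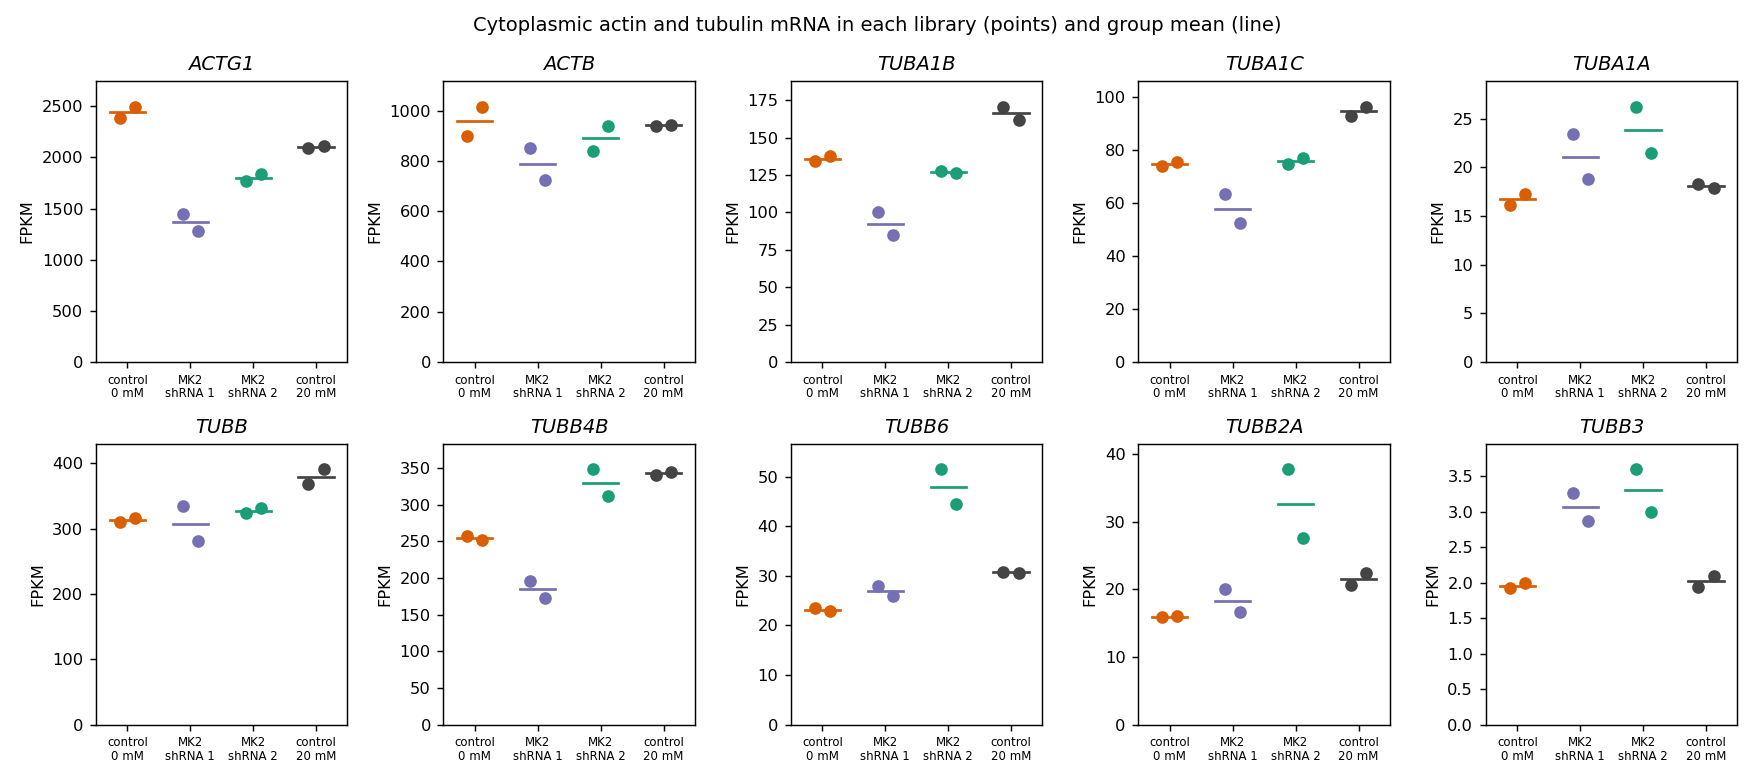
FPKM of the 10 genes in each of the 8 libraries (points) with group means (lines), in control cells at 0 mM glucose, cells with MAPKAPK2 (MK2) shRNA 1, cells with shRNA 2 and control cells at 20 mM glucose. ACTG1 is lowest with shRNA 1 (1450 and 1282 FPKM), and TUBB6 is highest with shRNA 2 (51.5 and 44.5 FPKM).

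ACTG1, gamma actin (chr17:81509971-81523847, minus strand), had 1450 and 1282 FPKM with shRNA 1, against 2091 and 2113 FPKM in the control with glucose. With shRNA 2 it had 1770 and 1834 FPKM, and without glucose 2388 and 2498 FPKM. The shRNA 1 libraries were the lowest of the 8 and those without glucose the highest, and no 2 groups overlapped. The log2 fold change, computed on FPKM + 1 here and throughout, was -0.62 for shRNA 1 against control, the value that led to the choice of the group. In bulk RNA, fewer cells that make a transcript and less of it per cell cannot be told apart.

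With shRNA 2, ACTG1 did not pass the test, with a log2 fold change of -0.22 (95% interval -0.53 to 0.08, limma adjusted p = 0.285). That comparison uses the same control libraries as the shRNA 1 contrast. It passed in 1 of 14 alternatives, the read-based fit with summed reads in place of the authors' library sizes, at -0.33 (limma voom adjusted p = 0.0168). ACTG1 was higher with shRNA 2 than with shRNA 1 by 0.40 on the log2 scale, a description with no test, since the shRNA 1 value led to the choice. The part of the unequal MAPKAPK2 levels in it was not tested. Without glucose ACTG1 was 0.22 above the control at 20 mM on the log2 scale (95% interval -0.09 to 0.52, limma adjusted p = 0.704).

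ACTB, beta actin (chr7:5527147-5563784, minus strand), had 898 and 1017 FPKM without glucose, 851 and 724 FPKM with shRNA 1, 840.4 and 939 FPKM with shRNA 2, and 940.03 and 943 FPKM in the control with glucose. Its groups overlapped in the glucose comparison and between the hairpins. No tested contrast passed, with log2 fold changes of 0.02 for glucose (limma adjusted p = 0.986), -0.08 for shRNA 2 against control (0.722) and 0.18 for shRNA 2 against shRNA 1 (0.393). The value for shRNA 1 against control was -0.26.

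Within each library, ACTG1 exceeded ACTB 2.66-fold and 2.46-fold without glucose, 1.70-fold and 1.77-fold with shRNA 1, 2.11-fold and 1.95-fold with shRNA 2, and 2.23-fold and 2.24-fold in the control with glucose. The ratio was thus highest without glucose and lowest with shRNA 1, with no overlap among the 4 groups. ACTG1 made up 63.5% ± 0.627 of actin FPKM with shRNA 1, 67.0% ± 1.18 with shRNA 2, 71.9% ± 1.13 without glucose and 69.1% ± 0.1002 in the control with glucose (SD, n = 2 each). Actins over tubulins stood at 3.95 and 4.19 without glucose and between 2.63 and 3.06 in the other 6 libraries.

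**Figure D2:**
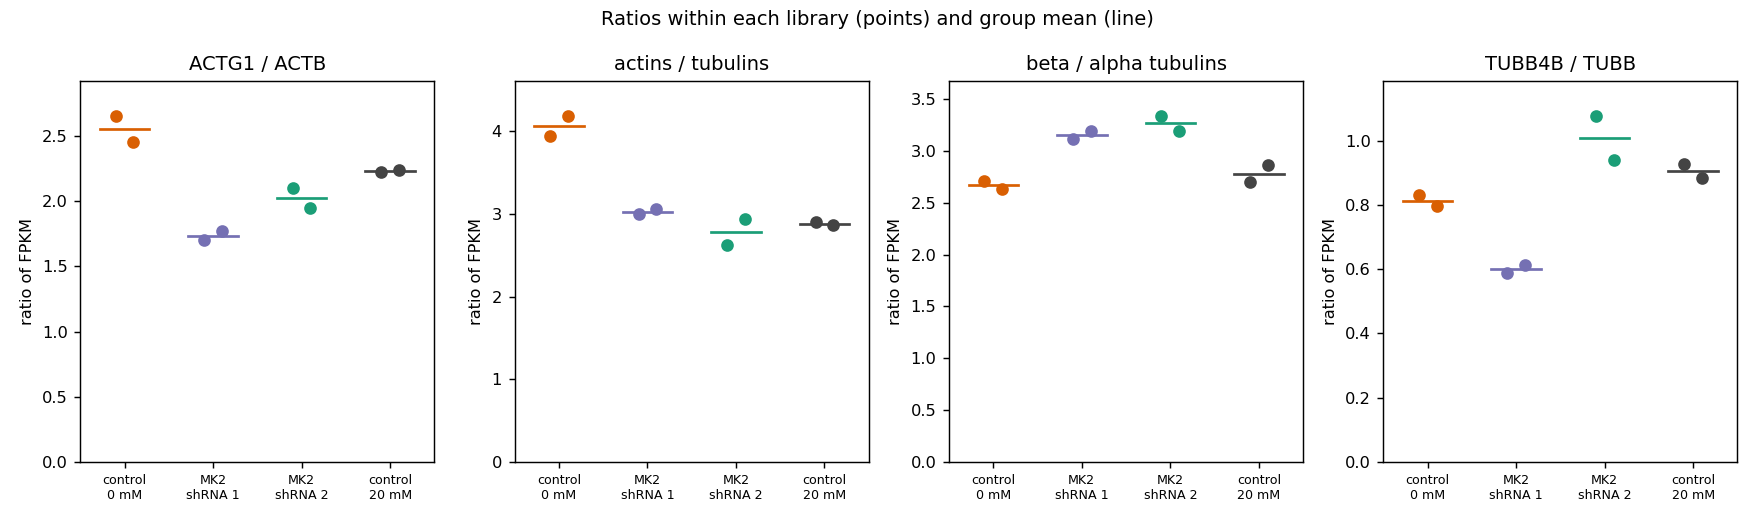
Ratios of FPKM within each library (points) with group means (lines), for ACTG1 over ACTB, the 2 actins over the 8 tubulins, beta over alpha tubulins and TUBB4B over TUBB, in control cells at 0 mM glucose, MAPKAPK2 (MK2) shRNA 1, shRNA 2 and control cells at 20 mM glucose. TUBB4B over TUBB is lowest with shRNA 1 (0.588 and 0.614), and actins over tubulins is highest without glucose (3.95 and 4.19).

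The 24 h without glucose compared fuel supply at a fixed shRNA. No member passed the limma test there, and 0.0% of the 16239 tested genes did (1421 at an unadjusted p under 0.05). With the test run on recovered reads (limma voom), 28 genes passed, or 0.172% of those tested, and none was a member. Missing the threshold does not show that levels did not differ. All 8 tubulins were below the control at 20 mM, as were 52.41% of all tested genes. The tubulin median log2 fold change was -0.31, against -0.01 over all tested genes. In 7 of 10 members the libraries without glucose lay wholly below the controls, as for 22.2% of all tested genes, and in 1, ACTG1, wholly above, as for 19.1%. At an unadjusted p under 0.05, 6 of 10 members were lower, against 4.72% of tested genes. TUBB3 stood above the control in 1 alternative, as given in the closing section.

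The lowest fold changes without glucose were those of TUBB4B, TUBB2A and TUBB6. TUBB4B, an isotype common to many tissues and also part of cilia, had 257 and 251 FPKM without glucose and 341 and 345 FPKM with it, a log2 fold change of -0.43 (SE 0.11, limma adjusted p = 0.402). TUBB2A had -0.41 (limma adjusted p = 0.543) and TUBB6 -0.39 (0.396). For the alpha tubulins the values were -0.34 for TUBA1C, -0.29 for TUBA1B and -0.11 for TUBA1A, and for TUBB and TUBB3 -0.28 and -0.03. The summed tubulin FPKM was 832 and 839 without glucose and 1045 and 1067 with it.

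TUBA1B, the most abundant alpha tubulin here (chr12:49127782-49131397, minus strand), had 134 and 138 FPKM without glucose, 100.04 and 84.9 FPKM with shRNA 1, 128 and 126 FPKM with shRNA 2, and 171 and 162 FPKM in the control with glucose. Both hairpins lay below the control libraries without overlap. It fell with shRNA 2, by 0.39 on the log2 scale (SE 0.10, limma adjusted p = 0.0444), and was at -0.84 with shRNA 1, a value with no test. Antisense annotation (AC011603.2, at most 0.381 FPKM) covers 36.63% of its exon bases, and whether the reads kept strand is not stated.

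TUBA1C, next in level (chr12:49188736-49274603, plus strand), had 74.0 and 75.5 FPKM without glucose, 63.3 and 52.5 FPKM with shRNA 1, 74.6 and 76.9 FPKM with shRNA 2, and 93.0 and 96.4 FPKM in the control with glucose. All 6 other libraries were below the 2 controls with glucose. The log2 fold change was -0.32 for shRNA 2 against control, which did not pass (limma adjusted p = 0.0845), and -0.71 for shRNA 1 against control, with no test.

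TUBA1A, the alpha isotype best known from developing neurons (chr12:49184796-49189324, minus strand), had 16.2 and 17.3 FPKM without glucose, 23.4 and 18.8 FPKM with shRNA 1, 26.2 and 21.4 FPKM with shRNA 2, and 18.3 and 17.8 FPKM in the control with glucose. Both hairpins lay above the control libraries at 20 mM, and those without glucose below. Its log2 fold change was 0.38 for shRNA 2 against control (95% interval 0.05 to 0.70, limma adjusted p = 0.104) and 0.21 for shRNA 1 against control, with no test. Its share of alpha tubulin FPKM was 12.3% ± 0.339 with shRNA 1, 10.5% ± 1.36 with shRNA 2, 7.35% ± 0.202 without glucose and 6.47% ± 0.0141 in the control with glucose (SD, n = 2 each). Opposite-strand exons of TUBA1C cover 14.32% of its exon bases.

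TUBB, the beta tubulin with the highest mean over all libraries (chr6:30720201-30725426, plus strand), had 309.7 and 316 FPKM without glucose, 334 and 281 FPKM with shRNA 1, 323 and 331 FPKM with shRNA 2, and 368 and 391 FPKM in the control with glucose. The controls with glucose were the highest, and the hairpins overlapped each other. Its log2 fold change of -0.21 for shRNA 2 against control did not pass (limma adjusted p = 0.253), and that for shRNA 1 was -0.31, with no test.

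TUBB4B (chr9:137241213-137243707, plus strand) had 196 and 172 FPKM with shRNA 1, 348 and 311 FPKM with shRNA 2, and 341 and 345 FPKM in the control with glucose. The shRNA 1 libraries were the lowest of all 8, and the libraries of shRNA 2 lay on both sides of the controls. Its log2 fold change was -0.89 for shRNA 1 against control, the lowest of the 10 genes, with no test, and -0.06 for shRNA 2 against control (limma adjusted p = 0.76). TUBB4B over TUBB was 0.588 and 0.614 with shRNA 1, 1.08 and 0.940 with shRNA 2, 0.831 and 0.795 without glucose, and 0.926 and 0.883 in the control with glucose.

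TUBB6, a beta tubulin of many tissues (chr18:12307669-12344320, plus strand), had 23.5 and 22.9 FPKM without glucose, 27.9 and 25.9 FPKM with shRNA 1, 51.5 and 44.5 FPKM with shRNA 2, and 30.8 and 30.6 FPKM in the control with glucose. The 2 libraries of shRNA 2 stood above all the others. TUBB6 rose with shRNA 2, by 0.62 on the log2 scale (SE 0.10, limma adjusted p = 0.00673), and was at -0.18 with shRNA 1, with no test. Exons of AFG3L2 on the opposite strand, at 9.92 to 12.9 FPKM, cover 20.33% of its exon bases.

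TUBB2A (chr6:3153669-3157526, minus strand) had 15.9 and 16.0 FPKM without glucose, 20.1 and 16.7 FPKM with shRNA 1, 37.8 and 27.6 FPKM with shRNA 2, and 20.7 and 22.4 FPKM in the control with glucose. It too was highest in both libraries of shRNA 2, at a log2 fold change of 0.56 against control that missed the threshold (SE 0.16, limma adjusted p = 0.0507). The value was 0.34 without the first library of shRNA 2 (limma adjusted p = 0.119) and 0.78 without the second (0.0147). With shRNA 1 it was at -0.23, with no test.

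TUBB3 (chr16:89921392-89938761, plus strand) was the least abundant member, with 136 to 302 reads per library. It had 1.92 and 1.99 FPKM without glucose, 3.26 and 2.86 FPKM with shRNA 1, 3.60 and 3.00 FPKM with shRNA 2, and 1.94 and 2.09 FPKM in the control with glucose. The exact 95% Poisson interval, which covers counting error only, was 2.61 to 3.43 FPKM in the lower shRNA 2 library and 1.79 to 2.44 FPKM in the higher control. TUBB3 rose with shRNA 2, by 0.51 on the log2 scale (SE 0.12, limma adjusted p = 0.0312), and was at 0.43 with shRNA 1, with no test.

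The 4 neuron markers summed to 8.55 to 9.12 FPKM with shRNA 1, 6.81 to 8.21 FPKM with shRNA 2, 13.2 to 16.0 FPKM without glucose and 10.3 to 10.8 FPKM in the control with glucose. ELAVL4 was at 0 in all 8 libraries, and SYT1, at 5.97 to 15.1 FPKM, made up most of each sum. MAP2 had 0.997 and 1.15 FPKM with shRNA 1, 0.649 and 0.854 FPKM with shRNA 2, and 0.786 and 0.632 FPKM in the control with glucose, while RBFOX3 was at 0.107 to 0.272 FPKM in all libraries. The part of these genes in the TUBB3 result was not tested. AC092143.1, a locus on the same strand at no more than 0.117 FPKM, overlaps 35.76% of the TUBB3 exon bases.

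**Figure D3:**
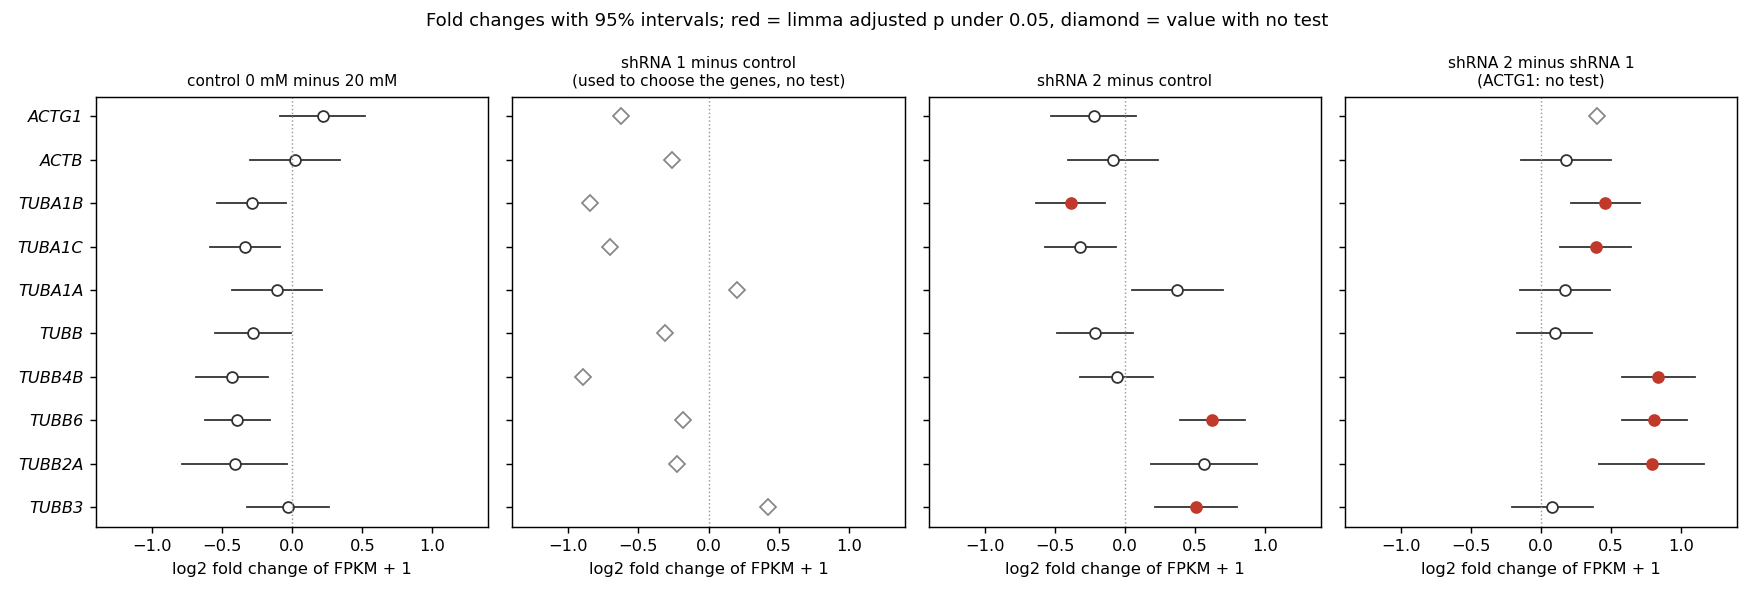
Log2 fold changes of FPKM + 1 for the 10 genes in 4 contrasts, with 95% limma intervals as lines. Red points passed an adjusted p of 0.05, and diamonds are values given with no test, namely all of shRNA 1 against control and ACTG1 between the hairpins. TUBB6 lies at 0.62 for shRNA 2 against control, and TUBB4B lies at 0.84 for shRNA 2 against shRNA 1.

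In all, 3 of 10 members passed in shRNA 2 against control, beside 18.8% of all tested genes. TUBB6 and TUBB3 were higher (11.1% of tested genes were) and TUBA1B lower (7.73%). Without either control with glucose, fewer members and also fewer of all tested genes passed. The same held without either library at 0 mM and without the first library of shRNA 2. Each such fit leaves 1 library in a group. The libraries at 0 mM enter the shared error of the fit and not this contrast. TUBB6 was at 0.63 and 0.62 without the first and without the second control at 20 mM (limma adjusted p = 0.0559 and 0.0539), and TUBB3 at 0.47 and 0.54. With summed reads as library size 7 of 10 passed, beside 1714 genes higher and 2238 lower of 16239. The median of all genes then stood at -0.10, against 0.01 with the authors' sizes. The fold changes of the 4 most abundant tubulins, TUBA1B, TUBA1C, TUBB and TUBB4B, were below 0 and those of TUBB6, TUBB2A, TUBB3 and TUBA1A above 0, of which TUBA1B, TUBB6 and TUBB3 passed. The tubulin median was 0.16. Beta over alpha tubulin FPKM was 3.12 and 3.19 with shRNA 1, 3.34 and 3.20 with shRNA 2, 2.71 and 2.64 without glucose, and 2.70 and 2.87 in the control with glucose, so both hairpins lay above all 4 control libraries.

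Between the hairpins, 5 of the 9 members tested passed, all of them higher with shRNA 2. Of all tested genes, 22.2% passed in either direction and 13.0% in that one. This comparison uses the shRNA 1 libraries whose ACTG1 level drew attention to the group, so it is not independent of that choice. ACTG1 alone was left out of it. For TUBB4B, shRNA 1 was at -0.89 against control and shRNA 2 at -0.06. TUBB4B differed by 0.84 (SE 0.11, limma adjusted p = 0.00331), TUBB6 by 0.81 (SE 0.10, 0.00243) and TUBB2A by 0.79 (SE 0.16, 0.0148), within 1 SE of each other. Their order changed with the processing, TUBB2A being at 0.64, TUBB6 at 0.61 and TUBB4B at 0.56 with quantile normalization. The alpha tubulins TUBA1B and TUBA1C differed by 0.46 (SE 0.10, limma adjusted p = 0.0228) and 0.39 (SE 0.11, 0.0424). With quantile normalization those 2 were at 0.22 (limma adjusted p = 0.209) and 0.13 (0.429) and no longer passed, and with summed reads TUBA1C was at 0.25 (limma voom adjusted p = 0.0927). All 10 fold changes were above 0, as were those of 8535 of the 16239 tested genes. Those of ACTB, TUBB and TUBB3 changed sign under other scalings or with a library left out. Fewer members and also fewer of all tested genes passed without the second library of shRNA 1. The same held without either control with glucose and without the first library of shRNA 2. With summed reads as library size 4 of the 9 members passed, beside 1838 genes higher and 2731 lower of 16239. The median of all genes then stood at -0.10, against 0.04 with the authors' sizes.

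**Figure D4:**
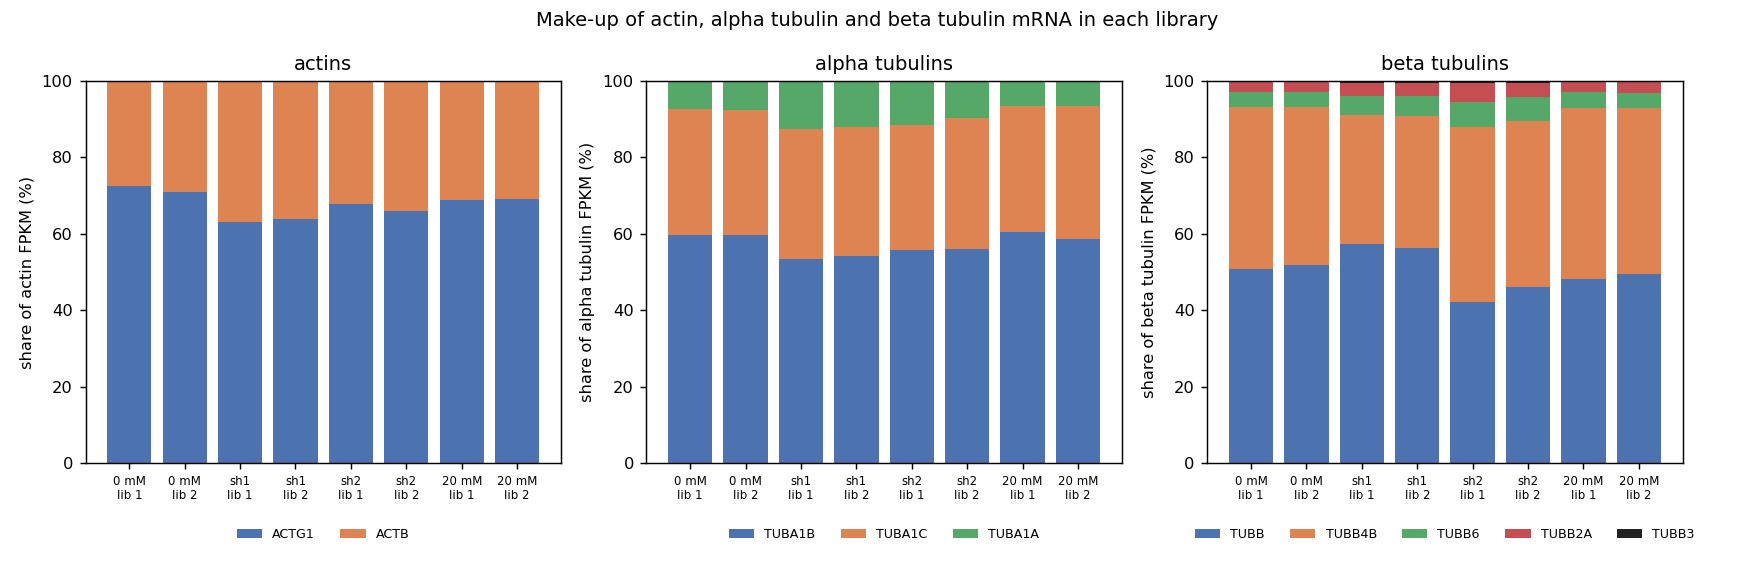
Share of actin, alpha tubulin and beta tubulin FPKM held by each gene (stacked bars, percent) in each library, with control at 0 mM glucose, shRNA 1, shRNA 2 and control at 20 mM glucose from left to right. TUBB4B holds 34.2% of beta tubulin FPKM with shRNA 1 and 44.5% with shRNA 2.

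Within the beta tubulins, TUBB held 56.9% ± 0.805 of the summed level with shRNA 1 and 44.2% ± 2.74 with shRNA 2, against 48.8% ± 0.785 in the control with glucose (SD, n = 2 each). TUBB4B held 34.2% ± 0.583 with shRNA 1 and 44.5% ± 1.55 with shRNA 2, against 44.2% ± 0.759 in that control. The minor isotypes had larger shares with both hairpins, TUBB6 holding 5.00% ± 0.286 with shRNA 1 and 6.47% ± 0.382 with shRNA 2, against 3.95% ± 0.117. TUBB2A held 3.39% ± 0.0740 and 4.39% ± 0.777, against 2.77% ± 0.0836. With shRNA 1 the mean levels of TUBB6 and TUBB2A were themselves below that control, at 26.9 against 30.7 FPKM and 18.4 against 21.6 FPKM. TUBB4B averaged 184 against 343 FPKM. These shares and means are descriptions with no test.

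Patterns over the 8 libraries are a description, since these are 4 groups of 2 and share all their values with the contrasts above. Some pairs of members were alike, and no grouping was run. TUBB2A and TUBB6 had a Pearson r of 0.979 on log2(FPKM + 1), TUBA1B and TUBA1C 0.976, and TUBA1A and TUBB3 0.926, whereas ACTG1 and TUBB3 had -0.755. Pairs across these were also high, such as TUBA1C with TUBB4B (0.891) and TUBA1A with TUBB2A (0.804). Of 636 protein-coding genes with a mean of at least 50 FPKM, those most like ACTG1 were EPHA2 (r = 0.978), an ephrin receptor, EEF2 (0.975), the ribosomal elongation factor 2, EZR (0.969), the actin-membrane linker ezrin, AREG (0.968), an EGF receptor ligand, and IER3 (0.957), an immediate early gene. EZR had 394 and 382 FPKM with shRNA 1, 509 and 458 FPKM with shRNA 2, 755 and 780.1 FPKM without glucose, and 629 and 629.9 FPKM in the control with glucose.

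Other cytoskeletal genes were taken from 9 lists, none of which held a gene that passed in the glucose comparison. Of all tested genes, 19.8% passed in either direction with shRNA 1 and 18.8% with shRNA 2, and in the read-based fit 25.5% and 24.2%. Among regulators of actin monomers and filament turnover, 6 of 24 rose and 0 fell with shRNA 1, and 10 rose and 1 fell with shRNA 2. The read-based fit gave 7 higher and 4 lower with shRNA 1, and 12 higher and 1 lower with shRNA 2. The list medians were 0.16 and 0.41, against -0.01 and 0.01 over all genes. PFN2, a profilin that binds actin monomers, rose with both hairpins. It averaged 43.3 ± 1.87 FPKM under shRNA 1, 61.2 ± 1.35 FPKM under shRNA 2 and 22.9 ± 0.617 FPKM in the control (SD, n = 2 each). Its log2 fold changes were 0.89 (limma adjusted p = 0.00174) and 1.38 (0.00027).

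Actin nucleators gave 6 higher and 4 lower of 23 with shRNA 1 (19.8% of all tested genes in either direction), and 10 higher and 1 lower with shRNA 2 (18.8%). The read-based fit gave 6 higher and 4 lower with shRNA 1, and 13 higher and 1 lower with shRNA 2. CYFIP2, a subunit of the WAVE complex, rose with shRNA 1 to 10.9 ± 0.211 FPKM, against 3.33 ± 0.0373 FPKM in the control (log2 fold change 1.45, limma adjusted p = 0.000426). The formin DIAPH1 fell with shRNA 2 to 20.4 ± 1.23 FPKM, against 43.9 ± 0.899 FPKM in the control (-1.07, limma adjusted p = 0.000584). Among crosslinkers and contractile proteins, 4 of 28 rose and 8 fell with shRNA 1, while 10 rose and 4 fell with shRNA 2, beside the same shares. In the read-based fit 5 rose and 8 fell with shRNA 1, and 10 rose and 5 fell with shRNA 2. Moesin, MSN, which links filaments to the membrane, rose with both, by 0.77 with shRNA 1 (limma adjusted p = 0.00251) and 1.17 with shRNA 2 (0.000502).

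Folding factors for tubulin and actin gave 1 higher and 5 lower of 24 with shRNA 1 (median -0.28), and 0 higher and 3 lower with shRNA 2 (median -0.01), beside 19.8% and 18.8% of all tested genes. The read-based fit gave 1 higher and 9 lower with shRNA 1, and 0 higher and 3 lower with shRNA 2. CCT5 and CCT7 are subunits of the chaperonin that folds both proteins. CCT5 fell with shRNA 1 to 51.2 ± 2.47 FPKM, against 74.7 ± 1.14 FPKM in the control (-0.54, limma adjusted p = 0.00738). CCT7 fell with shRNA 2 to 91.0 ± 8.85 FPKM, against 138 ± 4.19 FPKM (-0.60, limma adjusted p = 0.00944). TTC5, the reader of nascent tubulin, fell with shRNA 2 to 1.92 ± 0.175 FPKM, against 3.09 ± 0.271 FPKM (-0.48, limma adjusted p = 0.0359).

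Microtubule-binding proteins gave 3 higher and 4 lower of 26 with shRNA 1, and 5 higher and 1 lower with shRNA 2, beside 19.8% and 18.8% of all tested genes. The read-based fit gave 3 higher and 5 lower with shRNA 1, and 7 higher and 1 lower with shRNA 2. The depolymerase KIF2C fell with shRNA 1 to 20.4 ± 0.837 FPKM, against 37.4 ± 2.80 FPKM (-0.84, limma adjusted p = 0.00218). MAP7, which binds along microtubules, rose with shRNA 2, by 0.59 (limma adjusted p = 0.00488). Of 12 microtubule nucleators, MZT1 alone fell with shRNA 1 (-0.61, limma adjusted p = 0.0143), and TUBGCP5 rose with shRNA 2 (0.58, limma adjusted p = 0.0106), where the read-based fit gave 2 higher. Tubulin-modifying enzymes gave 3 higher and 5 lower of 16 with shRNA 1, led by SVBP, partner of the tyrosine-removing vasohibins, at -1.02 (limma adjusted p = 0.0122). With shRNA 2 they gave 3 higher and 2 lower, led by the deacetylase SIRT2 at 0.82 (limma adjusted p = 0.00706). In the read-based fit 4 rose and 6 fell with shRNA 1, and 4 rose and 4 fell with shRNA 2.

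Of 21 other actins and tubulins, 9 passed the filter. Of all tested genes, 19.8% passed in either direction with shRNA 1 and 18.8% with shRNA 2, and in the read-based fit 25.5% and 24.2%. With shRNA 1, TUBB4A (0.73, limma adjusted p = 0.0286) and TUBG2 (0.46, 0.0428) rose and the gamma tubulin TUBG1 fell (-0.49, 0.0177). With shRNA 2, ACTR1A, the actin-related protein of dynactin, rose (0.66, limma adjusted p = 0.00751), and the read-based fit gave 2 higher. The muscle actins ACTA1, ACTA2, ACTC1 and ACTG2 were not among those tested.

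SRF had 12.6 and 11.4 FPKM with shRNA 1, 26.9 and 22.8 FPKM with shRNA 2, 20.8 and 17.0 FPKM without glucose, and 18.9 and 17.4 FPKM in the control with glucose. It fell with shRNA 1, by 0.56 on the log2 scale (limma adjusted p = 0.0268). It stood 0.99 higher with shRNA 2 than with shRNA 1 (limma adjusted p = 0.00338), a contrast named after its values were seen. That contrast uses the shRNA 1 libraries whose ACTG1 level drew attention to the group. The part of SRF in the ACTG1 level was not tested. For shRNA 2 against control SRF was at 0.43 (limma adjusted p = 0.064, or 0.0243 in the read-based fit). Its cofactors MRTFA and MRTFB passed in none of the 4 contrasts, MRTFA with log2 fold changes of 0.05 for shRNA 1 and 0.01 for shRNA 2.

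**Figure D5:**
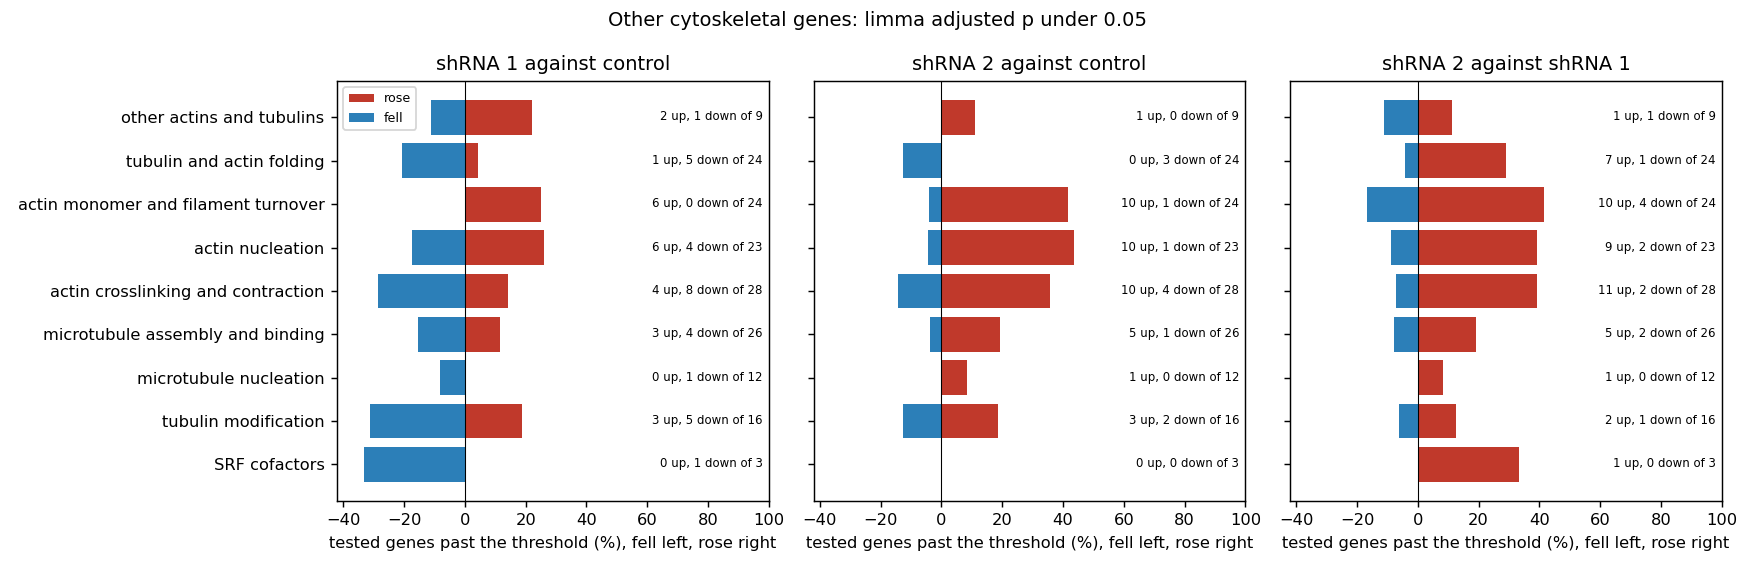
Percent of tested genes of 9 cytoskeletal lists that rose (right) or fell (left) at a limma adjusted p under 0.05, for shRNA 1 against control, shRNA 2 against control and shRNA 2 against shRNA 1. Actin turnover genes show 10 up and 1 down of 24 with shRNA 2, and folding factors 1 up and 5 down of 24 with shRNA 1. Of all tested genes, 18.8% passed in either direction with shRNA 2 and 19.8% with shRNA 1.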

How the data were processed

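Total RNA was reverse transcribed from random hexamers, per the labels. Their protocols do not say whether strand was kept. Per the submitters' processing notes DESeq2 1.20.0, featureCounts 1.5.0-p3 and HISAT2 2.0.5 were used, with no role given. The deposited FPKM values of 58735 genes were made by the authors. All identifiers, coordinates and exon lengths match GENCODE 29 (GRCh38). FPKM times exon length was a whole number of steps, within 0.001 of a step, for 100% of values, which returned reads per gene. They sum to 0.932 to 1.05 times the library size the authors divided by, defined in none of the sources used here.

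From these values, limma 3.58.1 (R 4.3.3, eBayes with trend) was run on log2(FPKM + 1), which understates changes of low genes, for the 16239 genes that reached 1 FPKM in 2 or more libraries. One model of 4 group means (4 residual degrees of freedom) was used, with Benjamini-Hochberg adjustment over all genes and a threshold of 0.05. Alternatives were a pseudocount of 0.1, no filter, quantile normalization, limma voom on the reads with the authors' or summed library sizes, a replicate block and each library left out. The level per transcript, the unadjusted counts and the counts of libraries that do not overlap were added after seeing the data. The fit was tested on simulated data, where the fit on FPKM missed most of the smaller changes that were put in. Sequences came from GENCODE 29 transcripts and RefSeq promoters (GRCh38.p14), where 9 of 10 members matched; ACTB was named only.

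Members and lists were chosen with earlier results of these data known. Beyond the members, the rule for names took up to 3 genes with the smallest p per list and contrast, of which those that lead a list or bear on a member are given, and the 5 genes most like ACTG1. SRF between the hairpins was named after its values were seen.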

Additional observations from a re-analysis of the deposited data

Results flagged for a closer look

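The effects of the 2 hairpins on 5 tubulins differed by the test of the difference itself (limma on log2(FPKM + 1), shRNA 2 minus shRNA 1, 2 libraries each). That test uses the shRNA 1 libraries whose ACTG1 level drew attention to the group, so it is not independent of the choice. The difference was 0.84 for TUBB4B (adjusted p = 0.00331), 0.81 for TUBB6 (0.00243), 0.79 for TUBB2A (0.0148), 0.46 for TUBA1B (0.0228) and 0.39 for TUBA1C (0.0424). In each of these genes both libraries of shRNA 2 were above both of shRNA 1. TUBB4B and TUBB6 passed in all 14 alternatives run, TUBB2A in 13, TUBA1B in 8 and TUBA1C in 4. These alternatives re-use the same libraries and are not independent support. Over those alternatives the adjusted p reached at most 0.031 for TUBB4B, 0.0272 for TUBB6, 0.0946 for TUBB2A, 0.209 for TUBA1B and 0.429 for TUBA1C. MAPKAPK2 itself was lower with shRNA 2 (0.982 and 0.800 FPKM) than with shRNA 1 (2.77 and 2.54 FPKM), and its part in these differences was not tested.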

How the results depend on the processing

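No member passed in the glucose comparison under any of the 14 alternatives. All tested genes passing there numbered 6 with no filter, 28 and 25 in the read-based fits with the authors' and with summed library sizes, and 0 to 1 with a library left out. With shRNA 2 against control, the members passing numbered 1 with no filter, 5 with quantile normalization, and 5 and 7 in the read-based fits. Over all genes, 1322 were higher and 839 lower of 35173 with no filter, and 1541 and 1515 of 16239 with quantile normalization. The read-based fits gave 2309 higher and 1628 lower with the authors' sizes, and 1714 and 2238 with summed reads. TUBB6 passed in 12 of 14 alternatives, TUBA1B in 7 and TUBB3 in 6. Between the hairpins the members passing numbered 3 with no filter and 3 with quantile normalization. Beside them, 1526 of all genes were higher and 1120 lower with no filter, and 1768 and 1822 with quantile normalization. Over all genes, leaving out a library gave 942 to 4054 calls for shRNA 1 against control, 1015 to 3026 for shRNA 2 against control, and 1335 to 3473 between the hairpins, where all 8 libraries gave 3222, 3055 and 3602.

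Directions turned for these members, and the cause was not tested. Without glucose, ACTB was at -0.11 with quantile normalization and -0.0679 to 0.1105 with a library left out, and TUBB3 at -0.0655 to 0.0058, the turns being without the second library at 0 mM and the second control at 20 mM. With shRNA 2 against control, TUBB4B was at -0.1396 to 0.0222 with a library left out, above 0 without the second library of shRNA 2. Between the hairpins, ACTB was at -0.28 and TUBB at -0.17 with quantile normalization, and TUBB at -0.047 and TUBB3 at -0.0353 with summed reads. With a library left out, TUBB was at -0.0305 to 0.2202, below 0 without the second of shRNA 1, and TUBB3 at -0.0204 to 0.1808, below 0 without the first of shRNA 2.

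Scaling by summed reads placed the median of all genes at -0.10 for shRNA 2 against control and -0.10 between the hairpins, against 0.01 and 0.04 with the authors' sizes. It left 43.37% and 40.23% of calls higher, against 58.92% and 58.83% with the FPKM. Quantile normalization left 50.43% and 49.25% higher.

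Replicates with the same number were not shown to pair, with correlations of -0.029 to 0.179 between groups. With the replicate block, 0 members passed for glucose, 4 for shRNA 2 against control and 5 between the hairpins, and 3470, 3332 and 3806 genes passed for shRNA 1 against control, shRNA 2 against control and between the hairpins.

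Depth limited TUBB3 most, with 136 to 302 reads per library, and 2 libraries per group limited every comparison.

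As a share of reads in place of FPKM, ACTG1 made up 59.6% of actin with shRNA 1, 63.3% with shRNA 2, 68.5% without glucose and 65.5% in the control with glucose.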
